A study of Mus musculus with 4 samples.

Results

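Genes of the Hedgehog pathway were examined in RNA-seq of primary neural stem/progenitor cells (NSCs) from newborn mice with and without Chd5. The pathway genes were chosen by name as Ptch1, Smo, Gli1, Gli2, Gli3, Sufu, Hhip, Boc and Gas1. Of these 9 genes, 8 were matched to a row of the deposited table, which has 18169 rows, and Gli1 was not analysed here. The series held 4 samples of C57BL/6 mice, 2 from +/+ animals and 2 from Chd5-/- animals, each a culture from the periventricular region of 1 neonatal brain, ventricular and subventricular zone included. All cultures were kept in proliferation medium with epidermal growth factor and fibroblast growth factor 2, and the recipe in the labels lists no Hedgehog ligand or Smo agonist. Chd5-/- NSCs came from a Chd5-deficient mouse line and not from a deletion confined to a chosen cell type. By the age entries of the labels, the +/+ mice were at postnatal day 1 or 2 and the Chd5-/- mice at day 3 or 4, whereas the growth protocol gives postnatal day 1 for all, so that by the age entries age and genotype cannot be told apart.

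Hedgehog signaling is a pathway by which cells read a secreted ligand, and in the postnatal brain it is known for maintaining stem cells around the lateral ventricles and for giving them ventral identity. Without ligand, the receptor Ptch1 holds the membrane protein Smo inactive, and the Gli transcription factors are processed into repressors or kept in the cytoplasm by Sufu. Ligand binding to Ptch1, helped by coreceptors such as Gas1, Boc and Cdon, frees Smo, and active Gli proteins then induce target genes that include Ptch1, Gli1 and Hhip, the products of Ptch1 and Hhip being brakes on the same signal.

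Expression was measured as TPM (each transcript's share of all transcripts, scaled to a fixed total), a unit that corrects for transcript length, so that levels can be compared between genes, but that retains no number of reads. The depth of each sample is therefore unknown, and the error of counting cannot be given. Chd5 itself, on chromosome 4 of GRCm38 (152338651 to 152390194), was at 0.39 and 0.37 TPM in +/+ NSCs and at 0.06 and 0.04 TPM in Chd5-/- NSCs. These levels were low in both genotypes and below the mean of 1 TPM needed for a test, so Chd5 was not tested. All 10 marker genes set for neural stem and progenitor cells were detected in every sample, and their summed level was 9739 and 8062 TPM in +/+ NSCs and 3841 and 6626 TPM in Chd5-/- NSCs. The rank correlation of TPM across rows, which are not independent replicates, was 0.974 between the +/+ samples and 0.904 between the Chd5-/- samples. Nothing in the labels beyond the separate brains describes batches, and p-values measure only the spread between these cultures.

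Ptch1 and Hhip are both textbook Gli targets with brake functions, and they stood near opposite ends of the expression range in these cells. Their promoter sequences are shown for that reason. The 250 bases before the RefSeq transcript start are given 5′ to 3′ on the coding strand of GRCm38.p6, with CpG dinucleotides in capitals, for Ptch1 at chr13:63565736-63565985 (minus strand) and for Hhip at chr8:80058009-80058258 (minus strand).
Ptch1: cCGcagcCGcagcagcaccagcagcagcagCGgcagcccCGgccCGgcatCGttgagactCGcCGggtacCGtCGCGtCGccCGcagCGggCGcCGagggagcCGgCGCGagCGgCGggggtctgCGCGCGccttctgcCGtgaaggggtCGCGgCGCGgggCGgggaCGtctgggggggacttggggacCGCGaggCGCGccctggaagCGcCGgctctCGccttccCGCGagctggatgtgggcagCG
Hhip: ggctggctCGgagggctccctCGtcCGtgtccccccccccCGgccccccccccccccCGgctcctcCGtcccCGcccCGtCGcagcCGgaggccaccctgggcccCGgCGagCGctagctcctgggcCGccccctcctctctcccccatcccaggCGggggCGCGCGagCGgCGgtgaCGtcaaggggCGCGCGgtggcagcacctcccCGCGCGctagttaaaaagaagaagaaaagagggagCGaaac
The Ptch1 window lies inside the gene as annotated, because longer transcripts start further upstream, and 0 of its bases are in exons. It held 41 CpG dinucleotides, more than 98.9% of the 32851 RefSeq promoter windows of this length, and the Hhip window held 28, more than 92.4% of them, against a median of 6. A dense CpG promoter was thus present both in a gene with high and in a gene with very low TPM. A promoter sequence was found for 7 members, with CpG counts of 34 for Gli3, 22 for Gli2, 15 for Smo, 10 for Gas1 and 8 for Sufu in the others. The Gli consensus GACCACCCA (TGGGTGGTC on the other strand) occurred in 0 of the 7 windows and in 0.225% of all windows, which says only that these letters are not in these stretches.

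In +/+ NSCs the receptor and a coreceptor were the most abundant members, and Gli2 and Gli3 were low. Ranked by mean TPM, the order was Ptch1 (97.0 ± 5.03 TPM, SD, n = 2), Gas1 (93.7 ± 26.5), Smo (25.1 ± 4.24), Sufu (5.70 ± 1.98), Gli3 (2.62 ± 0.580), Boc (1.38 ± 0.00707), Gli2 (0.835 ± 0.658) and Hhip (0.0950 ± 0.0354). The ranges of the 2 samples overlapped between Ptch1 and Gas1 and between no other neighbours. In Chd5-/- NSCs the order was Gas1 (184 ± 98.4 TPM), Ptch1 (153 ± 77.4), Smo (32.6 ± 5.52), Sufu (12.4 ± 2.38), Boc (5.22 ± 2.52), Gli3 (2.03 ± 0.163), Gli2 (1.19 ± 1.28) and Hhip (0.290 ± 0.198), with overlap between Gas1 and Ptch1, Gli3 and Gli2, and Gli2 and Hhip. Boc stood below Gli3 in both +/+ samples and above it in both Chd5-/- samples. Over all 4 samples, 94% of the rows of the table had a lower mean than Gas1 and 93.3% a lower mean than Ptch1, while only 19.5% had a lower mean than Hhip.

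**Figure D1:**
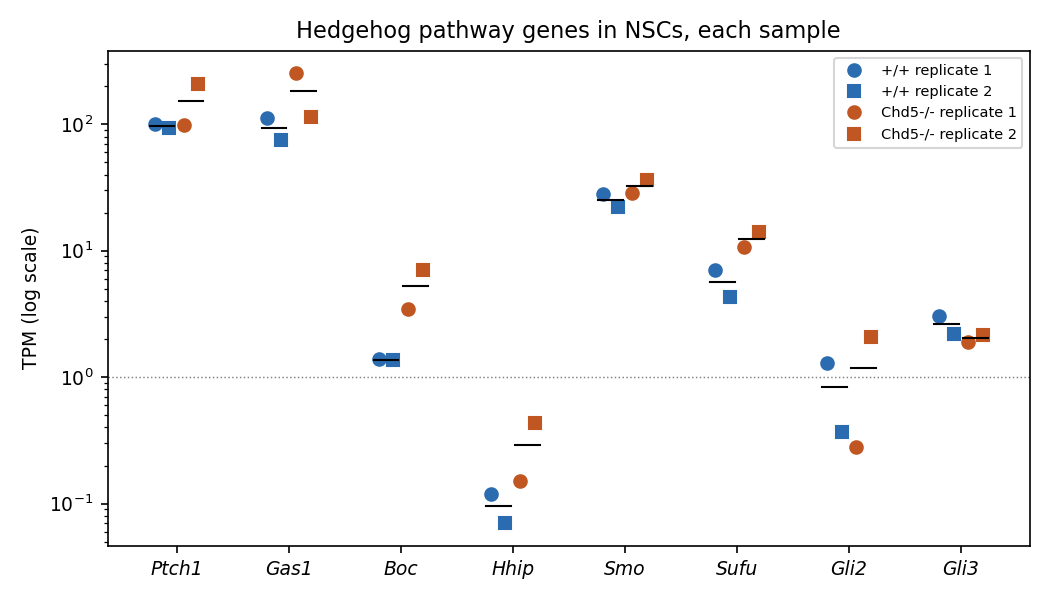
TPM of each Hedgehog pathway gene in each sample (log axis), with blue for +/+, orange for Chd5-/-, circles for replicate 1, squares for replicate 2, and black lines for the mean of 2 samples; the dotted line marks 1 TPM, the lowest mean tested. Ptch1 and Gas1 lie between 74.99 and 253.13 TPM in every sample, and Hhip lies at or below 0.43 TPM in every sample.

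The genotypes were compared for each member to ask whether pathway components differ in the absence of Chd5. The comparison used limma on log2(TPM + 1) over the 12576 rows that averaged 1 TPM or more, with Benjamini-Hochberg adjustment over these rows, and a log2 fold change is a difference of group means on that scale (Chd5-/- minus +/+), which understates changes of low genes. Of the 8 members, 7 were tested and Hhip was below the minimum. None of the 7 had an adjusted p-value under 0.05, where 0.0557% of all rows did. At an unadjusted p-value under 0.05, Boc and Sufu were higher in Chd5-/- NSCs and 0 members were lower, where 24.1% of all rows passed, 21.9% as higher and 2.27% as lower. The log2 fold change was above 0 for 6 of the 7 members and for 70.4% of all rows, and its median was 0.56 for the members, beside 0.34 for all rows tested. An exact permutation of 2 samples against 2 cannot give a p-value below 0.333, so no such test was used on single genes.

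Ptch1 (chromosome 13, 63508328 to 63573598, minus strand), the receptor, had 100.52 and 93.41 TPM in +/+ NSCs, against 98.69 and 208.13 TPM in Chd5-/- NSCs. Chd5-/- replicate 1 lay between the +/+ samples, and only replicate 2 stood apart. The log2 fold change was 0.56 (standard error 0.39, 95% interval -0.43 to 1.55, adjusted p = 0.416), and 43.6% of all rows tested had a difference at least as large. The difference between the Chd5-/- replicates was 1.07 on the same scale. Without Chd5-/- replicate 1 the log2 fold change was 1.10 (adjusted p = 0.0372, when 9.92% of all rows passed), and without replicate 2 it was 0.026.

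Gas1 (chromosome 13, 60174405 to 60177365, minus strand) encodes a membrane-anchored coreceptor that binds Hedgehog ligand. It was at 112.39 and 74.99 TPM in +/+ NSCs and at 253.13 and 113.95 TPM in Chd5-/- NSCs, so that the genotypes did not overlap, but the higher +/+ sample and the lower Chd5-/- sample were nearly equal. The log2 fold change was 0.88 (standard error 0.45, 95% interval -0.25 to 2.01, adjusted p = 0.290), smaller than the difference of 1.14 between the Chd5-/- samples. Here Chd5-/- replicate 1 was the high sample, opposite to Ptch1. Without replicate 2 the log2 fold change was 1.45 (adjusted p = 0.0388, when 8.64% of all rows passed), and without replicate 1 it was 0.31. The summed level of 8 marker genes of mesenchymal cells, all matched to a row, had the same order of Chd5-/- samples as Gas1, but not every marker did. The sum was 0.35 and 0.32 TPM in +/+ NSCs and 24.70 and 5.53 TPM in Chd5-/- NSCs, with Col3a1 at 7.41 and 0.00 and Acta2 at 9.55 and 0.20 TPM in Chd5-/- replicates 1 and 2. Twist1 had the opposite order, at 2.92 and 5.16 TPM in these samples and at 0.26 and 0.00 TPM in +/+ NSCs, and Col1a1 was at 0.00 TPM in 3 samples and 0.07 in Chd5-/- replicate 2. Their part in the Gas1 values was not tested. In such bulk samples, fewer cells of a type and less RNA per cell cannot be told apart.

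Boc (chromosome 16, 44485049 to 44558897, minus strand), a coreceptor of the immunoglobulin family, showed the largest log2 fold change of the 7 members. It was at 1.38 and 1.37 TPM in +/+ NSCs and at 3.43 and 7 TPM in Chd5-/- NSCs, a ratio of means of 3.79. Both Chd5-/- samples were well above the +/+ samples, which were almost identical to each other. The log2 fold change was 1.33 (standard error 0.41, 95% interval 0.30 to 2.36, unadjusted p = 0.0210, adjusted p = 0.154), more than the difference of 0.85 between the Chd5-/- samples, and 9.8% of all rows had a difference at least as large. Without Chd5-/- replicate 1 it was 1.75 (adjusted p = 0.0413), and without any other sample it was between 0.90 and 1.33 and did not pass the threshold. Hhip (chromosome 8, 79965851 to 80058006, minus strand), the decoy that binds secreted ligand, was at 0.12 and 0.07 TPM in +/+ NSCs and at 0.15 and 0.43 TPM in Chd5-/- NSCs. These levels are too low for a statement on a difference.

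Smo (chromosome 6, 29735503 to 29761365, plus strand), which carries the signal across the membrane, was at 28.07 and 22.08 TPM in +/+ NSCs and at 28.74 and 36.55 TPM in Chd5-/- NSCs. The genotypes were separated by less than 1 TPM. Its log2 fold change of 0.37 (standard error 0.26, 95% interval -0.30 to 1.04, adjusted p = 0.430) was close to the median of all rows, and it was between 0.20 and 0.54 with any single sample left out. Sufu (chromosome 19, 46396896 to 46488804, plus strand), the cytoplasmic inhibitor that binds Gli proteins, was at 7.10 and 4.30 TPM in +/+ NSCs and at 10.74 and 14.10 TPM in Chd5-/- NSCs, without overlap. The log2 fold change was 1.02 (standard error 0.34, 95% interval 0.15 to 1.89, unadjusted p = 0.0291, adjusted p = 0.171), and 19.3% of all rows had a difference at least as large. Leaving out any single sample gave log2 fold changes from 0.72 to 1.33 for Sufu, with adjusted p-values from 0.110 to 0.790.

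Gli2 (chromosome 1, 118834132 to 119053619, minus strand), the main activator of the family, was at 1.30 and 0.37 TPM in +/+ NSCs and at 0.28 and 2.09 TPM in Chd5-/- NSCs. Replicates differed by 0.75 in +/+ and by 1.27 in Chd5-/- NSCs on the log2 scale, both more than the genotypes did. The log2 fold change was 0.16 (standard error 0.57, 95% interval -1.29 to 1.62, adjusted p = 0.878), and it became -0.47 without Chd5-/- replicate 2 and 0.80 without replicate 1. Pdgfra and Sox10, markers of the oligodendrocyte lineage, were high in the same samples as Gli2, with Pdgfra at 13.02, 1.84, 2.98 and 22.75 TPM and Sox10 at 6.04, 1.46, 1.23 and 9.37 TPM in +/+ replicates 1 and 2 and Chd5-/- replicates 1 and 2. The 6 marker genes of this lineage that were matched to a row, of 7 listed, summed to 415 and 469 TPM in +/+ NSCs and to 314 and 758 TPM in Chd5-/- NSCs, and their part in the Gli2 values was not tested. Gli3 (chromosome 13, 15463235 to 15730026, plus strand), the main repressor of the family, was at 3.03 and 2.21 TPM in +/+ NSCs and at 1.91 and 2.14 TPM in Chd5-/- NSCs. It was the only tested member with a negative log2 fold change, at -0.25 (standard error 0.33, 95% interval -1.10 to 0.60, adjusted p = 0.667), and the higher Chd5-/- sample was just below the lower +/+ sample. Without +/+ replicate 1 the value was -0.087, and without +/+ replicate 2 it was -0.41.

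The difference between genotypes was larger than the larger of the differences between replicates for 3 of the 7 tested members, Boc, Sufu and Smo, and for 46.4% of all rows tested, a share close to that of the members. It was not so for Hhip. For Ptch1, Gas1 and Gli2 a replicate difference of more than 1 on the log2 scale lay within the Chd5-/- genotype. Of the 7 tested members, 5 had their highest value in Chd5-/- replicate 2, 1 in Chd5-/- replicate 1 and 1 in +/+ replicate 1, beside 39.9%, 36.7% and 10.1% of all rows tested. The genotypes did not overlap for 5 of the 7 tested members (59.4% of all rows). Of these, 4 were higher in Chd5-/- NSCs and 1 was lower, where 46.3% and 13% of all rows were, and neither count is a result particular to the members.

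**Figure D2:**
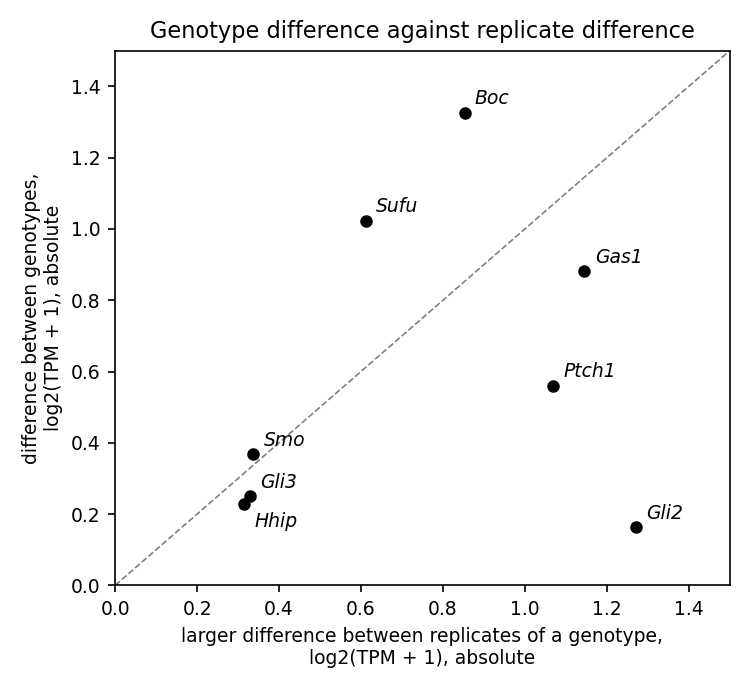
Absolute difference between genotype means of log2(TPM + 1) (vertical axis) against the larger absolute difference between the 2 replicates of a genotype (horizontal axis), 1 point per Hedgehog pathway gene, with a dashed line of equality. Boc, Sufu and, narrowly, Smo lie above the line, and Gli2, Ptch1 and Gas1 lie to the right with replicate differences of 1.27, 1.07 and 1.14.

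Removal of GC and length trends changed the direction of Smo, Gas1 and Gli2, and quantile normalization changed that of Gli2 alone. TPM adds to the same total in each sample, and the deposited values gave all rows a median log2 fold change of 0.34. This median was 0.0052 with median-of-ratios scaling, -0.052 with quantile-normalized values and -0.029 with trends of GC content and transcript length removed. At an unadjusted p-value under 0.05 the deposited values gave 2748 higher and 285 lower rows, median-of-ratios scaling 1508 and 1311, quantile normalization 1104 and 1024, and removal of the trends 640 and 727. Among these rows, only Boc was left of the members after median-of-ratios scaling (limma unadjusted p = 0.041). Neither Boc nor Sufu was left under the other 2 settings. The only member there was Gli3 after quantile normalization (limma unadjusted p = 0.0312) and Smo with the trends removed (0.0442), both lower. Relative to the median of all rows as deposited, Boc was higher by 0.99, Sufu by 0.68, Gas1 by 0.54 and Ptch1 by 0.22 on the log2 scale, Smo was at 0.028, Gli2 at -0.18 and Gli3 at -0.59. Boc was at 1.06, 0.67 and 0.52 after median-of-ratios scaling, quantile normalization and removal of the trends, and Sufu at 0.69, 0.44 and 0.23. Ptch1 was at 0.19, 0.47 and 0.21. Smo was at 0.0069 and 0.071 under the first 2 of these settings. The median of the members was 0.19 after median-of-ratios scaling. Gli3 stayed below zero under the same settings, at -0.51, -0.88 and -0.63. In contrast, with the trends removed Smo was at -0.54, Gas1 at -0.064 and Gli2 at -0.66. Across all rows the log2 fold change was larger with higher GC content of the transcript (rho = 0.60, over genes that are not independent replicates), and GC content was 55.8% to 58.4% for Sufu, Boc, Gli2, Smo and Gas1, against 47.8% for Ptch1 and 48.4% for Gli3.

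**Figure D3:**
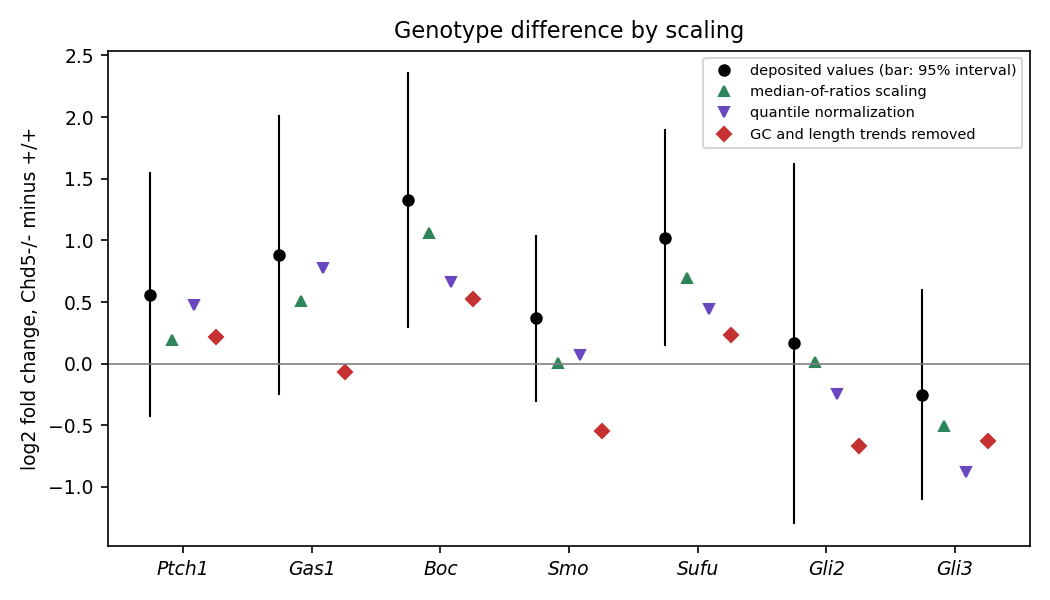
Log2 fold change (Chd5-/- minus +/+) of the 7 tested Hedgehog pathway genes with deposited values (black, bar for the 95% limma interval), after median-of-ratios scaling (green), quantile normalization (purple) and removal of GC and length trends (red). Boc, Sufu and Ptch1 are above zero and Gli3 below zero under all 4, while Smo, Gas1 and Gli2 change side.

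Ratios between members of the same sample do not depend on scaling by a constant. The pairs given here were chosen after their values were seen and are descriptive. The ratio of Sufu to Smo was 0.253 and 0.195 in +/+ NSCs and 0.374 and 0.386 in Chd5-/- NSCs, and that of Sufu to Gli3 was 2.34 and 1.95 against 5.62 and 6.59. Boc relative to Smo was 0.0492 and 0.0620 against 0.119 and 0.192. These 3 ratios were higher in Chd5-/- NSCs with no overlap in these samples, which does not tell which of the paired genes differed. The share of all gene pairs without overlap was not determined. Removal of GC and length trends could still alter such ratios, and GC content was 55.8% for Sufu and 48.4% for Gli3. Ptch1 relative to Smo, at 3.58 and 4.23 against 3.43 and 5.69, overlapped between genotypes. The ratio of Gas1 to Ptch1 was 1.12 and 0.803 in +/+ NSCs and differed between the Chd5-/- samples, at 2.56 and 0.547. The ratio of Gli3 to Gli2 ranged from 1.02 in Chd5-/- replicate 2 to 6.82 in Chd5-/- replicate 1.

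The other parts of the pathway were followed in 5 lists. Among genes for ligands and their release, Shh was at 0.05 TPM or less in every sample, Ihh at 0.04 TPM or less, and Dhh at 0.96 and 0.69 TPM in +/+ NSCs and 1.00 and 0.04 TPM in Chd5-/- NSCs. Transcripts of all 3 ligands were thus at or below 1 TPM in these cells. Only 2 of the 9 genes of this list were tested, with a median log2 fold change of 0.25. Disp1, which releases lipid-bearing ligand, was at 4.42 and 4.04 TPM against 5.30 and 6.34 TPM (log2 fold change 0.38, adjusted p = 0.462). The value was 0.069 with median-of-ratios scaling, and the direction turned to -0.28 with quantile-normalized values and to -0.40 once the trends of GC content and length were taken out. Scube2, which helps in ligand release, was at 2.62 TPM in Chd5-/- replicate 2 and at 0.15 TPM or less elsewhere, a gene named after its values were seen.

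Among 8 other receptor-side genes, 6 were tested, 0 passed the adjusted threshold and 2 were higher at an unadjusted p-value under 0.05, where 21.9% of all rows were. Mgrn1, a ubiquitin ligase that lowers Smo at the cell surface, was at 22.61 and 22.20 TPM against 37.39 and 41.78 TPM (log2 fold change 0.79, 95% interval 0.22 to 1.36, adjusted p = 0.142). Its replicates differed by a few TPM, but with GC and length trends removed the log2 fold change was -0.050. Cdon, the coreceptor related to Boc, ranged from 24.91 to 0.55 TPM between the +/+ samples and was at 6.00 and 2.64 TPM in the Chd5-/- samples (log2 fold change -0.33, 95% interval -3.68 to 3.03), and was named after its values were seen. The median of the 6 tested genes was 0.92, and without Chd5-/- replicate 1 it was 0.69, below the 0.80 of the members and the 0.73 of the transducers.

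All 20 cytoplasmic and ciliary transducers were tested, with a median log2 fold change of 0.63. Of these, 0 passed the adjusted threshold, 7 were higher and 0 lower at an unadjusted p-value under 0.05, and 13 were higher and 4 lower without overlap, where 21.9% and 2.27% of all rows passed the unadjusted threshold as higher and lower, and 46.3% and 13% did not overlap. The smallest p-value was that of Fkbp8, known as a negative regulator of the pathway in the neural tube, at 9.03 and 6.37 TPM against 22.70 and 32.35 TPM (log2 fold change 1.71, 95% interval 0.91 to 2.51, adjusted p = 0.120). It was at 0.76 with GC and length trends removed. Csnk1e, a casein kinase, was at 21.48 and 16.11 TPM against 31.58 and 47.00 TPM (1.01, adjusted p = 0.153, but 0.15 with GC and length trends removed). On the lower side, Cul3, the cullin with which Spop turns over Gli proteins, was at 249.64 and 263.75 TPM against 197.55 and 180.51 TPM (-0.44, adjusted p = 0.267). Prkacb, a catalytic subunit of the protein kinase A that phosphorylates Gli proteins, was at 171.38 and 195.50 TPM against 164.31 and 127.46 TPM (-0.34, adjusted p = 0.425). Prkaca, the other catalytic subunit listed, went the opposite way and was named after its values were seen. It was at 65.33 and 53.93 TPM against 105.38 and 94.66 TPM (0.74, limma adjusted p = 0.153, but -0.071 with GC and length trends removed).

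Of 16 genes for trafficking in the primary cilium, the organelle in which Smo and the Gli proteins meet, 15 were matched and tested. Their median log2 fold change was 0.50, 1 was higher at an unadjusted p-value under 0.05 and 0 were lower, and 10 were higher without overlap, beside 21.9%, 2.27% and 46.3% of all rows. The 3 matched markers of ependymal and choroid plexus cells, of 4 listed, summed to 1.58 and 1.92 TPM in +/+ NSCs and to 6.54 and 5.27 TPM in Chd5-/- NSCs. Nearly all of this was Foxj1, a regulator of motile cilia, at 1.52 and 1.71 against 6.50 and 5.11 TPM, whose part in the cilium list was not tested. Fuz, a planar polarity effector needed for cilium formation, was at 11.02 and 6.35 TPM against 16.31 and 19.08 TPM (log2 fold change 0.99, adjusted p = 0.174, but 0.090 with GC and length trends removed). Ift172, a part of the intraflagellar transport machinery, was at 8.57 and 7.85 TPM against 11.82 and 20.21 TPM (0.84, adjusted p = 0.212, but 0.24 with the trends removed). No gene of this list passed the adjusted threshold. Among reported Gli targets other than the members, 17 of 20 were matched and 8 rows were tested, and their median was -0.054, the lowest of the 6 lists with all samples. Without Chd5-/- replicate 2 it was 0.025, above the -0.18 of the ligand list. In limma, 0 of these 8 rows reached an unadjusted p-value under 0.05, where 24.1% of all rows did. Without overlap, 3 were higher and 2 lower in Chd5-/- NSCs, beside 46.3% and 13% of all rows. Foxm1, a cell cycle transcription factor, was at 8.03 and 3.27 TPM against 9.14 and 15.05 TPM (1.04, adjusted p = 0.252, but 0.32 with GC and length trends removed). Rab34, a cilium-associated GTPase, was at 23.62 and 18.30 TPM against 31.76 and 27.00 TPM (0.47, adjusted p = 0.319, but -0.51 with GC and length trends removed). Bmi1, a Polycomb protein, was at 174.63 and 146.75 TPM against 105.50 and 116.44 TPM in the row tested (-0.53, adjusted p = 0.225). Ccnd2, cyclin D2, was at 327.37 and 325.43 TPM against 250.67 and 58.15 TPM (-1.42, 95% interval -3.14 to 0.30, adjusted p = 0.266), with the low value in Chd5-/- replicate 2, the sample in which Ptch1 was highest.

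**Figure D4:**
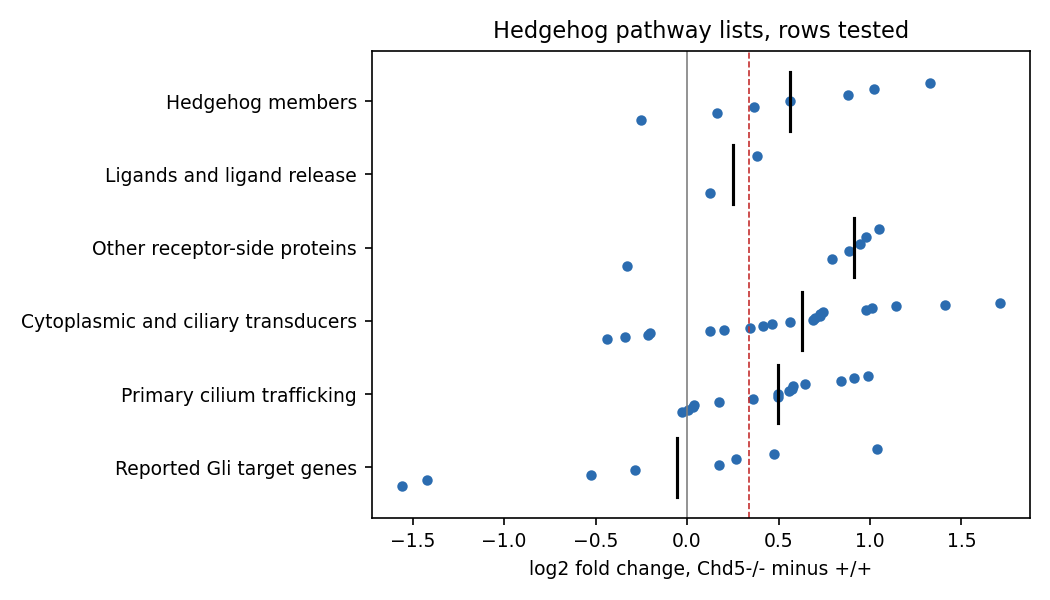
Log2 fold change (Chd5-/- minus +/+) of every tested row of the Hedgehog pathway genes and of 5 further pathway lists, 1 point per row, with a black bar for the median of the list, a grey line at zero and a red dashed line at the median of all rows, 0.34. The reported Gli targets have the lowest median, -0.054, and the other receptor-side proteins the highest, 0.92, with all 4 samples; neither rank holds for every sample left out.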

How the data were processed

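RNA of 2 +/+ and 2 Chd5-/- primary NSC cultures was sequenced from stranded libraries of polyadenylated RNA. The authors deposited TPM values, 1 column per sample. The submitters' processing notes name Bowtie2 2.2.3, RSEM 1.2.20 and mm10 without giving their roles, and the annotation is not given in the sources used here. The table held 0 rows at 0 in all samples, and 196 names occurred in more than 1 row. Samples were grouped by title, and columns were assigned by genotype and replicate number.

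Values were taken to log2(TPM + 1), and genotypes were compared in limma 3.58.1 (R 4.3.3; lmFit and eBayes with a mean trend, two-sided, genotype as the only term) over the rows averaging 1 TPM or more. The procedure was tested on simulated data. TPM are not counts, so no count model was used. Named genes were all members, Chd5, Shh, Ihh, Dhh, the 3 rows most like Ptch1 and, for each list, rows called or else the 2 non-overlapping rows of smallest p-value in each direction; some genes named by this rule are not reported here. Members and lists were chosen with earlier results of these data known. Alternatives were pseudocounts of 0.1 and 5, no minimum or one of 10 TPM, 3 other scalings, removal of GC and length trends (loess, span 0.5, for 96.2% of rows tested), a replicate block, eBayes with no trend, and leaving out each sample. Coordinates, GC content and length came from GENCODE M21 of GRCm38, promoters from RefSeq (GRCm38.p6). Tables were made with Python 3.11.15 and pandas 2.3.3, figures with matplotlib 3.10.9.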

Additional observations from a re-analysis of the deposited data

How the results depend on the processing

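With limma, 7 rows passed the adjusted threshold, against 4 with a pseudocount of 0.1 or quantile normalization, 3 with GC and length trends removed, and 0 with no minimum (3089 higher and 384 lower rows at an unadjusted p-value under 0.05) or with the replicate block, alone (2111 and 178) or with the trends removed (440 and 455). With 1 sample left out the number ranged from 0 to 1247, the lone sample of a genotype then being assumed to vary like the others. The replicate numbers are not stated to pair cultures. Deviations of same-numbered samples correlated at -0.152, and a crossed pairing, chosen after the data were seen, gave 5 rows. Under the replicate block the members gave 0 calls, as without it. Ptch1, Sufu, Boc and Gli3 kept their direction under every alternative in which they were tested. Smo (-0.54), Gas1 (-0.064), Gli2 (-0.66) and the median of the members (-0.064) were reversed with the trends removed, with or without the block, and Gli2 also after quantile normalization (-0.25). Leaving out 1 sample gave -0.47 to 0.80 for Gli2, 0.20 to 0.54 for Smo, -0.41 to -0.087 for Gli3, 0.026 to 1.10 for Ptch1, 0.90 to 1.75 for Boc, 0.31 to 1.45 for Gas1 and 0.20 to 0.80 for the median of the members. Members higher without overlap numbered 2 after median-of-ratios scaling, quantile normalization or rescaling without the 20 most abundant rows (30.1%, 24.3% and 35% of all rows), 1 with the trends removed (21.2%) and 4 to 6 with 1 sample left out (51.3% to 61.8%). Members lower numbered 2 with the trends removed (26%) and 1 to 2 with 1 sample left out (18% to 25.9%). Over median-of-ratios scaling, quantile normalization and the trends removed, the medians were -0.048, -0.41 and -0.47 for ligand genes, 0.57, 0.42 and 0.17 for other receptor-side genes, 0.26, 0.048 and 0.016 for transducers, 0.19, -0.0078 and 0.15 for cilium genes, and -0.41, -0.42 and -0.55 for Gli targets. After rescaling without the 20 most abundant rows they were 0.71 for other receptor-side genes, 0.40 for transducers and -0.29 for Gli targets. With 1 sample left out they ranged from -0.18 to 0.68 for ligand genes, 0.69 to 0.93 for other receptor-side genes and -0.27 to 0.025 for Gli targets. The cause of these shifts was not tested.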

Other observations

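Cyclin D1 and cyclin D2 are growth-promoting targets attributed to the Gli factors, and both were abundant in these cultures. Ccnd1 was at 710.20 and 983.94 TPM in +/+ NSCs and at 722.51 and 110.93 TPM in Chd5-/- NSCs (log2 fold change -1.56, 95% interval -3.77 to 0.66, limma adjusted p = 0.331), and was named after its values were seen. Chd5-/- replicate 2 alone stood below the +/+ range, while the same sample had the highest Ptch1, Boc, Smo, Sufu, Gli2 and Hhip. Among neural patterning genes, named here after their values were seen, Nkx2-2, a homeobox gene of ventral progenitors, was at 4.88 and 20.41 TPM in +/+ NSCs and at 17.18 and 9.07 TPM in Chd5-/- NSCs, and Olig2, a ventral and oligodendrocyte lineage factor, was at 155.60 and 162.13 TPM against 190.31 and 169.68 TPM (log2 fold change 0.18, 95% interval -0.36 to 0.71, but -0.19 with median-of-ratios scaling and -0.79 with GC and length trends removed). Emx2, a homeobox gene of the dorsal telencephalon, was at 29.59 and 12.11 TPM in +/+ NSCs and at 2.30 and 0.20 TPM in Chd5-/- NSCs (log2 fold change -3.33, 95% interval -4.99 to -1.67, limma adjusted p = 0.120). The 4 matched dorsal markers, of 5 listed, summed to 67.09 and 17.71 TPM against 3.98 and 7.84 TPM, and the 4 matched ventral markers, of 5 listed, to 2.78 and 1.56 TPM against 5.68 and 1.36 TPM. Most of the dorsal sum was Emx2 and Lhx2. Lhx2 overlapped between genotypes, at 37.37 and 5.60 TPM against 1.55 and 6.73 TPM, and Neurog2 was highest in Chd5-/- replicate 2, at 0.91 TPM. Most of the ventral sum was Nkx2-1, which also overlapped, at 2.60 and 1.39 TPM against 5.56 and 1.32 TPM. Dlx1, Dlx2 and Gsx2 were at 0.17 TPM or less.

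The 3 rows whose log2 profile over the 4 samples was most like that of Ptch1 were Stk19, Satb1 and Cdh6, with root mean square differences of 0.0360, 0.0385 and 0.0503 on the log2 scale. Satb1, a chromatin organizer, was at 15.29 and 15.18 TPM in +/+ NSCs and at 16.07 and 34.09 TPM in Chd5-/- NSCs. Likeness over 4 samples rests mainly on the high value in Chd5-/- replicate 2, and Stk19 and Cdh6 were at 3.07 TPM or less throughout.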
